A study of Mus musculus with 3 samples.

Results

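The clustered protocadherin genes of the mouse lie in 3 arrays on chromosome 18, named Pcdha, Pcdhb and Pcdhg. They were picked by symbol from a RefSeq gene table (assembly GRCm38.p6, whose positions are those of mm10), as every protein-coding Pcdha, Pcdhac, Pcdhb, Pcdhga, Pcdhgb or Pcdhgc gene. This gave 57 genes of 21627 protein-coding genes (autosomes and X), namely 14 Pcdha, 22 Pcdhb and 21 Pcdhg genes. Of the 58 genes with such a symbol, Pcdhgb8 is annotated as a transcribed pseudogene and was not counted.

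Foxp3, a forkhead transcription factor known as the defining factor of regulatory T cells, was profiled by CUT&RUN in bone marrow-derived macrophages (BMDMs). In CUT&RUN an antibody brings a nuclease to the places in chromatin where its target sits, and the DNA that is cut loose is sequenced. The BMDMs were grown in medium conditioned with M-CSF and fixed in 0.1% formaldehyde for 2 min, and 2 Foxp3 replicates were compared; values of the third sample, an IgG isotype library, were not used here. Brain-derived danger signals are named in the title of the series, but no label says whether these cells received them or gives strain, age or number of animals. The replicates are not stated to be separate cultures, so the spread between them may be technical. Without values of the IgG library, sites that give fragments with any antibody cannot be told apart from Foxp3 sites.

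Clustered protocadherins are cell-surface adhesion proteins, best known from neurons, where each cell uses its own set of them and the proteins mediate self-recognition and self-avoidance of branches. In Pcdha and Pcdhg, each gene name stands for a variable first exon with a promoter of its own, which codes for the whole outer part of the protein and is spliced to constant exons at the far end of the array. Pcdhb genes are single-exon genes without shared constant exons. Promoter choice is known to involve CTCF, cohesin and DNA methylation. The C-type genes Pcdhac1, Pcdhac2, Pcdhgc3, Pcdhgc4 and Pcdhgc5 are known to be used more evenly across neurons than the others.

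Replicate 1 was called from 33294105 fragments and gave 556535 peaks, and replicate 2 was called from 34898401 fragments and gave 95135 peaks. The fragment size listed was 130 bp in replicate 1 and 180 bp in replicate 2. The part of this difference in the numbers and lengths of peaks was not tested. The peaks of each library were called separately by the authors, without a control library. Each peak carries a pileup, the number of fragments over its highest point (the summit), and a fold enrichment, the pileup plus 1 over a background term of the same library. The smallest pileup listed was 10 fragments in replicate 1 and 13 fragments in replicate 2, so a weaker site could not appear in the lists. With 1 condition and 2 replicates there was no comparison between conditions to test, so counts of members are set beside the share of all genes called by the same rule. The members are close copies of each other, and the sources used here do not give how reads that match several copies were aligned. Calls of single members are therefore uncertain, and the part of shared reads in them was not tested.

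The peaks of the clustered protocadherins lay inside the variable exons rather than before the promoters. In Pcdha, a summit shortly after the gene start and another further into the exon, at a median of 1551 bp in replicate 1 and 1540 bp in replicate 2, recurred from gene to gene. In Pcdhb, the site near the start was missing from most genes and a far site, at a median of 1894 bp in replicate 1 and 1967 bp in replicate 2, was present in most. In Pcdhg, both positions were used, with more differences between the replicates.

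A gene was first counted as having a site at its start when a peak of each replicate overlapped the 1000 bp on either side of the start. The start was the lower-coordinate end of the gene, which is the transcription start when the gene runs toward higher coordinates. The annotated Pcdha genes, and likewise the Pcdhg genes, share their far end at the higher coordinate, and the Pcdhb genes are known to run the same way. By this rule 18 of 57 members had a site in both replicates, which is 31.6% against 35.2% of all 21627 protein-coding genes. The members as a whole thus stood near the background in this measure. Where strand was known, on 17273 genes of other chromosomes, 59.5% had a site in both replicates at the transcription start, which is a higher share than among the members.

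The arrays differed among themselves under this rule. In Pcdha 11 of 14 genes were called (78.6%), in Pcdhb 2 of 22 genes (9.09%), and in Pcdhg 5 of 21 genes (23.8%). Overlapping peaks of the replicates were found at the same 18 of 57 members (31.6%), against 32.4% of all genes. Replicate 1 alone marked 34 members and replicate 2 alone marked 23, against 66.7% and 37.2% of all genes. A peak of replicate 1 only was found at 16 members, a peak of replicate 2 only at 5 members, and no peak of either at 18 members. Of all 21627 genes, 14426 had a peak of replicate 1, 8048 a peak of replicate 2 and 7618 a peak of both. By these counts the shares with replicate 1 only and with no peak were near those of all genes. The share with replicate 2 only was higher among the members, though it rests on 5 genes. The members without any peak within 1000 bp of the start were Pcdha9 and Pcdha12, the 12 genes Pcdhb3, Pcdhb5, Pcdhb8, Pcdhb9, Pcdhb13 to Pcdhb17, Pcdhb19, Pcdhb20 and Pcdhb22, and Pcdhgb1, Pcdhgb2, Pcdhga7 and Pcdhga12.

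Among the Pcdha genes, which code for cell-surface proteins that differ in their outer domains, Pcdha4, Pcdha5 and Pcdha6 carried the sites near the start with the highest mean percentile of fold enrichment. Pcdha4 had a summit at +348 bp with 83 fragments and a fold enrichment of 17.9 in replicate 1, and a summit at +324 bp with 26 fragments and a fold enrichment of 5.30 in replicate 2. Pcdha5 had 56 fragments at +291 bp (fold 10.00) in replicate 1 and 47 fragments at +314 bp (fold 9.42) in replicate 2. Pcdha6 had 78 fragments at +266 bp (fold 16.3) in replicate 1 and 32 fragments at +281 bp (fold 6.48) in replicate 2. In each of these 3 genes the summits of the replicates lay within 24 bp of each other, and the mean of their percentiles within the 2 peak lists was 91.4 for Pcdha4, 95.3 for Pcdha5 and 96.2 for Pcdha6.

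Most of the neighbouring exons held the same kind of site, and their folds overlapped those of Pcdha4, Pcdha5 and Pcdha6 in both replicates. Pcdha1 had a summit at +15 bp (42 fragments, fold 7.80) in replicate 1 and at +182 bp (23 fragments, fold 4.71) in replicate 2. Pcdha2 had fold enrichments of 6.60 in replicate 1 and 3.53 in replicate 2, with summits at +383 bp and +253 bp. Pcdha3 had fold enrichments of 10.3 in replicate 1 and 3.48 in replicate 2, with summits at +369 bp and +281 bp. In these 3 genes replicate 2 stood at 17 to 23 fragments, near the median of 21 fragments of all its peaks. Pcdha7 had fold enrichments of 6.49 in replicate 1 and 5.50 in replicate 2, at +296 bp and +276 bp. Pcdha10 was even between the replicates, with 33 fragments at +142 bp (fold 6.05) in replicate 1 and 35 fragments at +129 bp (fold 7.07) in replicate 2. Pcdha11 had 40 fragments at +135 bp in replicate 1 and 19 fragments at +117 bp in replicate 2. Pcdha8 departed from this, with 20 fragments at +281 bp (fold 3.12) in replicate 1 and no peak in replicate 2. Pcdha9 and Pcdha12, as given above, had no peak near the start in either replicate.

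The C-type Pcdha genes lie apart from the other variable exons, on the side of the constant exons. Pcdhac1 had its strongest peak at -193 bp with 48 fragments (fold 13.0) in replicate 1, and at +596 bp with 24 fragments (fold 4.91) in replicate 2. Both replicates had a summit on each side of the Pcdhac1 start. Pcdhac2 had 115 fragments at -57 bp (fold 12.2) in replicate 1 and 35 fragments at +443 bp (fold 5.30) in replicate 2, and these peaks overlapped although their summits lay apart.

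Among the Pcdhb genes, whose single exon holds the whole coding sequence, Pcdhb1 and Pcdhb4 were the members called near the start. Pcdhb1 had 52 fragments at +223 bp (fold 14.0) in replicate 1 and 26 fragments at +97 bp (fold 5.30) in replicate 2. Pcdhb4 had 13 fragments at +707 bp (fold 3.21) in replicate 1 and 16 fragments at +724 bp (fold 3.34) in replicate 2, both close to the smallest pileups listed. Pcdhb2, Pcdhb6, Pcdhb7, Pcdhb10, Pcdhb11 and Pcdhb12 had a peak of replicate 1 only, at +701 to +879 bp, the highest being that of Pcdhb10 with a fold enrichment of 8.06. Pcdhb18 had a peak of replicate 2 only, with 23 fragments at +329 bp (fold 4.16). Pcdhb21 likewise had a peak of replicate 2 only, with 21 fragments at -870 bp (fold 4.32). In replicate 1 the start site of Pcdhb1 stood above those of the other Pcdhb genes, while in replicate 2 its pileup was close to those of Pcdhb18 and Pcdhb21.

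Among the Pcdhg genes, the A-type genes Pcdhga3, Pcdhga5 and Pcdhga8, the B-type gene Pcdhgb6 and the C-type gene Pcdhgc3 were called near the start. Pcdhga3 had overlapping peaks at +308 bp (fold 9.15) in replicate 1 and +333 bp (25 fragments, fold 5.00) in replicate 2, and a further replicate 1 peak at +830 bp (34 fragments, fold 9.26). Pcdhga5 had 41 fragments at +207 bp (fold 4.77) in replicate 1 and 34 fragments at +301 bp (fold 6.14) in replicate 2. Pcdhga8 had 28 fragments at +289 bp (fold 6.54) in replicate 1 and 29 fragments at +374 bp (fold 5.59) in replicate 2. The pileups of Pcdhga5 and Pcdhga8 were thus close in the 2 replicates. Pcdhgb6 had 86 fragments at +286 bp (fold 8.96) in replicate 1 and 24 fragments at +24 bp (fold 3.96) in replicate 2.

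The C-type Pcdhg genes differed from each other. Pcdhgc3 had 51 fragments at +9 bp (fold 8.32) in replicate 1 and 23 fragments at -155 bp (fold 4.61) in replicate 2. Pcdhgc4, which in mice is needed for the survival of neurons, had a peak of replicate 2 only, with 18 fragments at -34 bp (fold 3.73). Pcdhgc5 had a peak of replicate 1 only, with 25 fragments at +671 bp (fold 3.41). Among the other members with 1 replicate, Pcdhgb7 reached 124 fragments at +304 bp (fold 10.3) in replicate 1, and replicate 2 listed no peak there.

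**Figure D1:**
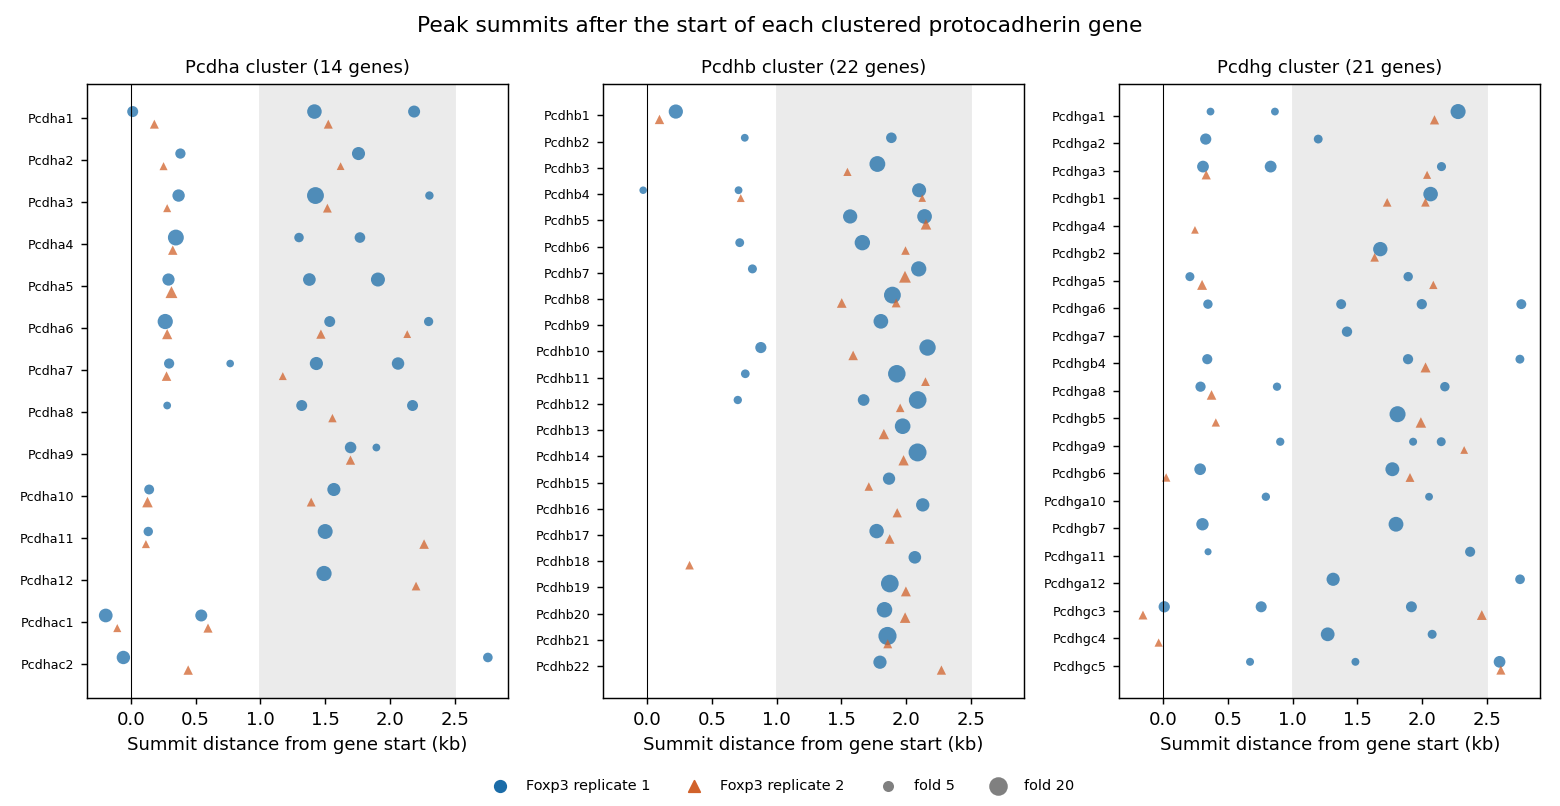
Summits of all peaks near the start of each of the 57 genes, by distance from the gene start in kb (horizontal axis) and by gene in chromosomal order (vertical axis), with replicate 1 as circles and replicate 2 as triangles and the marker area growing with fold enrichment; grey marks 1000 to 2500 bp. Pcdha exons show a column of summits of both replicates between the start and the grey band and another inside it, while most Pcdhb genes show the grey-band column only.

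The summit positions led to a second count, over the 2500 bp after the start, the length taken here for a variable exon. In this stretch 46 of 57 members had a peak of both replicates (80.7%), against 58.9% of the 17273 genes whose strand was known. In 44 members the peaks overlapped each other, against 55.9% of those genes. Replicate 1 had a peak in 56 members and replicate 2 in 47, against 82.4% and 60.5% of those genes. The count held all 14 Pcdha genes, 20 of 22 Pcdhb genes (90.9%) and 12 of 21 Pcdhg genes (57.1%). Pcdhb2 and Pcdhb9 were the Pcdhb genes with no replicate 2 peak, and Pcdhga4 was the one member with no replicate 1 peak, with 18 fragments at +246 bp (fold 2.997) in replicate 2. Across the 3 arrays the lowest share was thus that of Pcdhg, close to the background.

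The far part of the exon set the members apart more than its beginning did. Summits of both replicates 1000 to 2500 bp after the start were found at 38 of 57 members (66.7%), against 5.93% of the 17273 genes with known strand. This stretch was chosen after the summit positions had been seen, so the counts are a description. It held 18 of 22 Pcdhb genes (81.8%), 10 of 14 Pcdha genes (71.4%) and 10 of 21 Pcdhg genes (47.6%). Replicate 1 had a summit there in 53 members and replicate 2 in 38, against 33.0% and 8.30% of those genes. The 4 members Pcdhac1, Pcdhac2, Pcdhb1 and Pcdhga4 had none of either replicate. Among the Pcdhb genes, Pcdhb2, Pcdhb9 and Pcdhb18 had such a summit in replicate 1 only.

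Counted per length, the members had 77.2 summits of replicate 1 and 48.0 summits of replicate 2 per 100 starts and kb in the stretch from 1000 to 2500 bp, against 26.2 and 5.85 for genes with known strand. From 250 bp before to 750 bp after the start the order was the other way round for the members as a whole. They had 52.6 summits of replicate 1 and 40.4 summits of replicate 2, against 81.7 and 55.3 for the other genes. Pcdha stood above the other genes here, at 92.9 in replicate 1 and 85.7 in replicate 2. Pcdhb, at 22.7 and 13.6, and Pcdhg, at 57.1 and 38.1, stood below them. From 2000 to 1000 bp before the start there was no summit at any of the 57 members in either replicate. This allows a share of up to 5.26% of members. The other genes had 21.1 summits of replicate 1 and 3.91 of replicate 2 per 100 starts and kb. The replicate 2 value lies below that limit, so replicate 2 does not show a lower density than that of the other genes. Beyond the exon, from 2500 to 5000 bp, the members had 9.82 summits of replicate 1 and 2.11 of replicate 2 per 100 starts and kb, against 24.7 and 4.01 for the other genes. In both replicates the member summits were thus densest inside the exon, and sparser before and beyond it than within it.

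**Figure D2:**
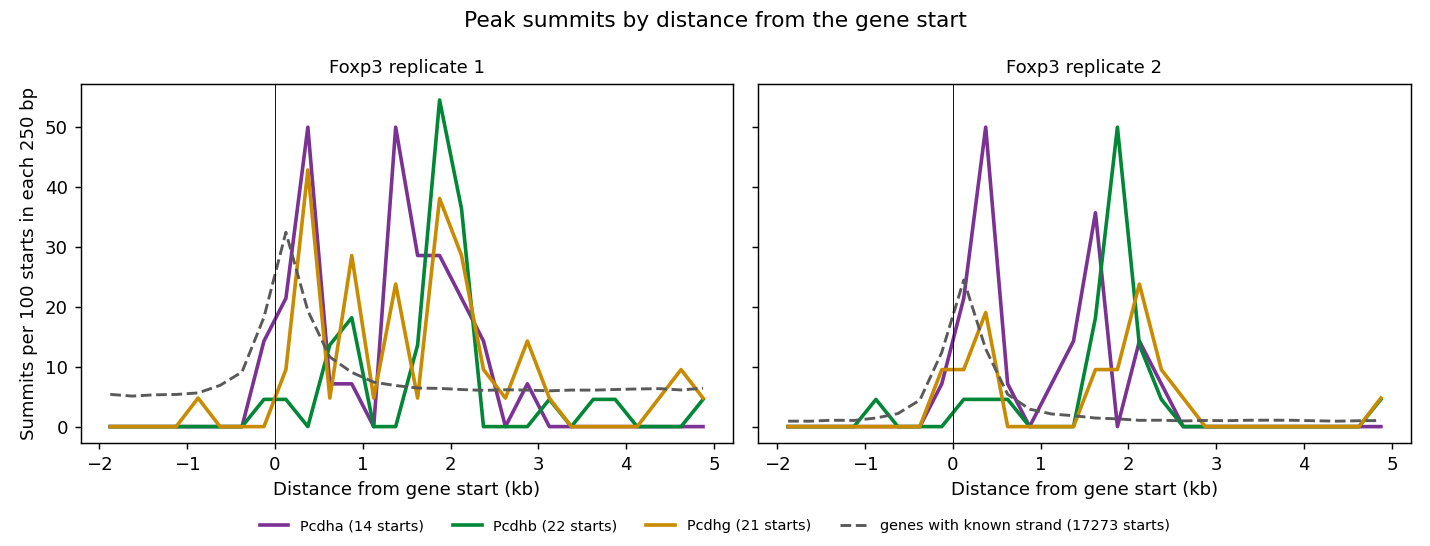
Summits per 100 gene starts in steps of 250 bp (vertical axis) by distance from the start in kb (horizontal axis), for replicate 1 (left) and replicate 2 (right); coloured lines are the 3 arrays and the dashed line is the 17273 other genes with known strand. The dashed line has its maximum just after the start, while the Pcdha line has maxima at 250 to 500 bp and between 1250 and 1750 bp and the Pcdhb line has its maximum at 1750 to 2000 bp in both replicates.

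The strongest of the far sites in replicate 1 were in Pcdhb. Taking the strongest peak of each of the 21 Pcdhb genes with a replicate 1 summit in the stretch, the fold enrichment was 7.14 to 23.8 with a median of 16.7, and the summits lay at 1662 to 2165 bp with a median of 1894 bp. Over the 18 with a replicate 2 summit, it was 2.95 to 9.23 with a median of 5.30, with summits at 1503 to 2272 bp and a median of 1967 bp. The medians over all peaks were 4.92 in replicate 1 and 3.99 in replicate 2, but those take in every peak and not the strongest per gene. With the same difference in choice, the replicate 1 peaks had a median length of 696 bp against 167 bp over the whole list.

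Pcdhb21 had the highest replicate 1 value, with 156 fragments at +1856 bp (fold 23.8), and 28 fragments at +1858 bp (fold 4.67) in replicate 2. Pcdhb14 had 91 fragments (fold 23.2) in replicate 1 and 33 fragments (fold 6.68) in replicate 2. Pcdhb19 had 123 fragments (fold 22.5) in replicate 1 and 30 fragments (fold 6.09) in replicate 2. These 3 genes had no overlapping start site of both replicates, so the far site was their one site shared by the replicates. Pcdhb12 had 100 fragments (fold 22.5) in replicate 1 and 20 fragments (fold 4.12) in replicate 2. Pcdhb11 had 90 fragments (fold 22.1) in replicate 1 and 21 fragments (fold 4.32) in replicate 2. Pcdhb8 had 89 fragments (fold 20.2) in replicate 1 and 28 fragments (fold 5.69) in replicate 2. The order of the genes was not the same in the replicates, since Pcdhb7, with 65 fragments (fold 16.3) in replicate 1, was highest in replicate 2 with 46 fragments (fold 9.23).

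Other Pcdhb genes filled the range between. Pcdhb5 and Pcdhb20 each reached a fold enrichment of 7.07 in replicate 2, beside 15.05 for Pcdhb5 and 17.0 for Pcdhb20 in replicate 1. Pcdhb13 had a fold enrichment of 17.2 in replicate 1 and 6.68 in replicate 2. Pcdhb17 had 128 fragments in replicate 1 and 33 fragments in replicate 2, with fold enrichments of 14.5 and 5.55. The weakest pair was in Pcdhb4, with 59 fragments (fold 13.7) in replicate 1 and 14 fragments (fold 2.95) in replicate 2, where the smallest pileup listed was 13. Pcdhb9 had 56 fragments (fold 15.1) in replicate 1 with no replicate 2 peak, and Pcdhb2 had 26 fragments (fold 7.14) in replicate 1 with no replicate 2 peak. A replicate 1 site of middling height was therefore no sure sign of a replicate 2 site.

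In Pcdha the far site was weaker and nearer to the start than in Pcdhb. With the strongest peak of each gene taken again, the fold enrichment over the 12 genes with a replicate 1 summit was 7.19 to 20.3 with a median of 11.7, with a median position of 1551 bp. Over the 10 with a replicate 2 summit it was 3.14 to 5.50 with a median of 4.52, with a median position of 1540 bp. Pcdha3 was highest in replicate 1, with 89 fragments at +1425 bp (fold 20.3), and had 22 fragments at +1517 bp (fold 4.52) in replicate 2. Pcdha12, which had no peak near its start, had 119 fragments at +1491 bp (fold 16.2) in replicate 1 and 21 fragments at +2201 bp (fold 4.32) in replicate 2. Pcdha9, the other Pcdha gene without a start peak, had 32 fragments at +1696 bp (fold 8.73) in replicate 1 and 25 fragments at +1695 bp (fold 5.10) in replicate 2. Both genes without a start site thus still had a far site in both replicates.

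Start and far sites occurred together in many Pcdha exons. Summits of both replicates were found at both positions in 7 of 14 Pcdha genes (50%), in 1 of 22 Pcdhb genes (4.55%) and in 4 of 21 Pcdhg genes (19.0%), against 2.31% of genes with known strand. Here the start position was taken as 250 bp before to 750 bp after the start, also chosen after the positions had been seen. Pcdha4 and Pcdha5, with the high start sites described above, had a far summit in replicate 1 only.

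In Pcdhg the far site was seen mostly in replicate 1. The fold enrichment of the strongest peak there was 3.17 to 18.2 over 20 genes, with a median of 6.67, and in replicate 2 it was 3.15 to 6.98 over 10 genes, with a median of 4.39. In replicate 1, B-type genes were mostly the higher ones. Pcdhgb1, Pcdhgb2, Pcdhgb5, Pcdhgb6 and Pcdhgb7 had folds of 13.4 to 18.2. Of the A-type genes only Pcdhga1 (15.9) reached that range, and the B-type gene Pcdhgb4 stood lower, at 6.51. In replicate 2 the folds of A-type and B-type genes overlapped, with Pcdhga1 at 5.10 and Pcdhgb6 at 4.57. Pcdhgb5 had 107 fragments at +1809 bp (fold 18.2) in replicate 1 and 39 fragments at +1989 bp (fold 6.98) in replicate 2. Pcdhgb2 had 115 fragments at +1676 bp (fold 14.3) in replicate 1 and 23 fragments at +1632 bp (fold 4.17) in replicate 2. Pcdhgb6 had 148 fragments (fold 13.4) in replicate 1 and 29 fragments (fold 4.57) in replicate 2. Pcdhgb7 had 182 fragments at +1797 bp (fold 15.4) in replicate 1 and no peak of replicate 2 in its exon, although its pileup was the highest of all members.

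Of the A-type genes, Pcdhga1 had 61 fragments at +2276 bp (fold 15.9) in replicate 1 and 25 fragments at +2094 bp (fold 5.10) in replicate 2, in peaks that did not overlap. Pcdhga12 had 105 fragments at +1312 bp (fold 11.8) in replicate 1 and no replicate 2 peak. Pcdhga10 was at the low end, with 41 fragments but a fold enrichment of 3.17 in replicate 1. The background term, by which the authors' fold divides, had a median of 5.62 in Pcdhg peaks of replicate 1 and reached 13.2, against a median of 3.78 over the list. The part of this term in the lower folds of Pcdhg was not tested. The pseudogene Pcdhgb8, which is not a member, had 192 fragments at +1743 bp (fold 20.3) in replicate 1 and 37 fragments at +1664 bp (fold 5.80) in replicate 2, above the Pcdhg genes in replicate 1.

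Of the C-type genes, Pcdhgc3 alone had a far summit in both replicates. Pcdhgc3 had 53 fragments at +1916 bp (fold 7.70) in replicate 1 and 29 fragments at +2459 bp (fold 5.89) in replicate 2, in peaks that did not overlap. Pcdhgc4 had 80 fragments at +1270 bp (fold 13.1) in replicate 1 and none in replicate 2. Pcdhgc5 had overlapping peaks just past the stretch, at +2596 bp (fold 9.05) in replicate 1 and +2606 bp (fold 4.87) in replicate 2. Pcdhac2, Pcdhb1, Pcdhgc4 and Pcdhgc5 are known to lack the promoter element, a CTCF site, that the other members share. None of these 4 genes had a far summit in both replicates, and Pcdhac2 and Pcdhb1 were called at the start in both. Such far summits were found at 38 of all 57 members, so other members lacked them too. Among those were Pcdhac1, Pcdha4, Pcdha5, Pcdhb2, Pcdhb9, Pcdhb18 and Pcdhgb7. The grouping of the 4 genes was made after the values had been seen, and no test was made of it.

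**Figure D3:**
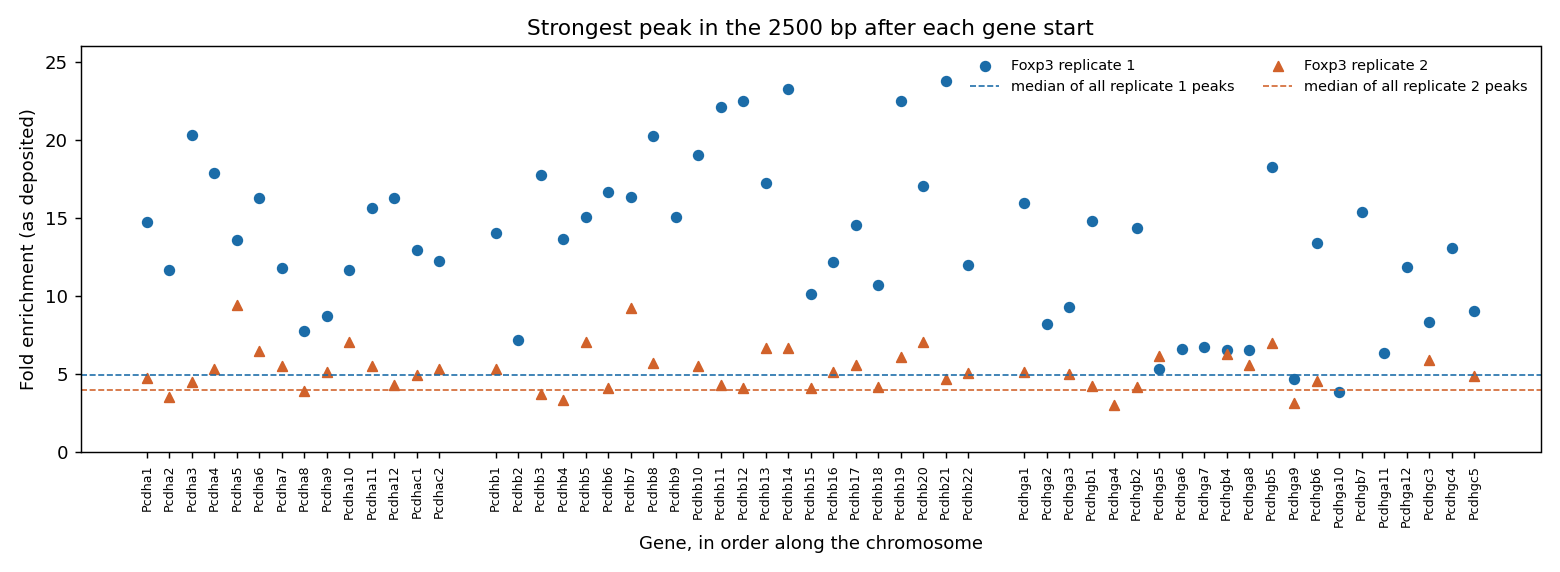
Fold enrichment, as deposited, of the strongest peak overlapping the 2500 bp after each start (vertical axis) for the 57 genes in chromosomal order (horizontal axis), with replicate 1 as circles and replicate 2 as triangles; dashed lines are the medians of all peaks, 4.92 in replicate 1 and 3.99 in replicate 2. Replicate 1 reaches 23.8 in Pcdhb and 18.2 in Pcdhg, while replicate 2 stays between 2.997 and 9.42 throughout.

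Along the arrays, most peaks lay in the variable exons. The Pcdha array spans chr18:36930285-37188897, the Pcdhb array chr18:37264998-37521419 and the Pcdhg array chr18:37661775-37841873 (mm10). Variable exons, with the whole annotated gene used for Pcdhb, made up 23.5% of the arrays' length. They held 108 of 162 peaks of replicate 1 (66.7%) and 64 of 77 peaks of replicate 2 (83.1%). Summits up to 250 bp before a start were counted with its exon, a stretch that the share of length leaves out. Of the replicate 2 peaks in variable exons 89.1% overlapped a replicate 1 peak, against 50% of the 10 peaks between exons and 33.3% of the 3 peaks after the last exon of an array. Peaks in variable exons were also higher in replicate 1, with a median fold enrichment of 8.53 against 4.76 between exons, while in replicate 2 the medians were 4.64 and 4.52.

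Within Pcdha, the stretch from Pcdha1 to Pcdha12 held 36 peaks of replicate 1 and 22 of replicate 2 in 92446 bp, which is 38.9 and 23.8 peaks per 100 kb. From there to Pcdhac1 the density was 6.02 peaks of replicate 1 and 3.01 of replicate 2 per 100 kb, and from Pcdhac1 to Pcdhac2 it was 7.99 and 2.00. The stretch after Pcdhac2, which holds the constant exons, had 4 peaks of replicate 1 and 2 of replicate 2, none of them overlapping. The corresponding stretch after Pcdhgc5 had 9 peaks of replicate 1 and 1 of replicate 2, which is 45.4 and 5.04 per 100 kb, in replicate 1 above the 38.9 of the Pcdha1 to Pcdha12 stretch. The Pcdha peaks thus sat mainly in the tandem variable exons, in both replicates.

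Outside the variable exons, overlapping peaks of the replicates were few. Past Pcdha7, at +6375 bp (fold 4.24 in replicate 1 and 7.07 in replicate 2) and at +15550 bp (fold 12.3 and 4.95), they lay in the pseudogene Gm36858. Another pair lay +17892 bp past the start of Pcdha12 (fold 10.1 in replicate 1 and 4.71 in replicate 2). In the Pcdhb array a pair lay +16393 bp past the start of Pcdhb1 (fold 5.03 in replicate 1 and 3.73 in replicate 2). The remaining ones were those of Pcdhgb8 and Pcdhgc5 given above. Over the arrays, 65 such pairs were found, with a median distance between summits of 126 bp and a range of 1 to 763 bp, and 51 of them had summits within 200 bp of each other.

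In number of peaks the replicates placed the arrays differently against the genome. Replicate 1 had 19.7 peaks per 100 kb in Pcdha, 18.7 in Pcdhb and 35.0 in Pcdhg, against 21.6 over the autosomes and X. Replicate 2 had 11.6 in Pcdha, 9.75 in Pcdhb and 12.2 in Pcdhg, against 3.69 over the autosomes and X. Pcdha and Pcdhb were therefore a little below the genome density in replicate 1 and 3.15 and 2.64 times above it in replicate 2, whereas Pcdhg was above it in both, by 1.62 and 3.31 times. Measured in base pairs under peaks, the 3 arrays were above the genome in both replicates, at 6.95% to 9.93% in replicate 1 against 4.62%, and at 3.75% to 4.23% in replicate 2 against 1.17%. Among stretches of equal length tiled along the genome, 98.3% lay below Pcdha, 95.3% below Pcdhb and 98.5% below Pcdhg in replicate 2, and 52.0%, 49.6% and 81.3% in replicate 1.

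The replicates shared peaks in the arrays more often than in the whole lists. Counting overlaps of at least 50% of both lengths, 39 of 77 replicate 2 peaks in the arrays were shared with replicate 1, which is 50.6% with an exact binomial 95% interval of 39.0% to 62.2%, against 32.9% of all replicate 2 peaks. The interval covers counting error only. From the side of replicate 1, 24.1% of the 162 peaks in the arrays were shared, against 5.62% of its whole list. With the replicate 2 peaks moved by 10 kb in both directions, 3.25% were shared in the arrays, against 4.28% over the list. Sharing was highest in Pcdha at 53.3% and lowest in Pcdhg at 45.5% of replicate 2 peaks, and the intervals of these shares overlapped. The median fold enrichment of peaks in the arrays was 6.50 in replicate 1 and 4.57 in replicate 2, against 4.92 and 3.99 over the lists.

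Related gene groups were counted by the same rules where strand was known. Unclustered protocadherins are single adhesion genes elsewhere in the genome. In most of them, though not in Pcdh15, a large early exon also codes for the outer part of the protein. Summits of both replicates 1000 to 2500 bp after the start were found in 4 of 9 such genes (44.4%), Pcdh15 counted among the 9. The 4 were Pcdh7, Pcdh8, Pcdh19 and Pcdh20. In Pcdh7 these summits lay at +1660 bp (fold 5.16) in replicate 1 and +1592 bp (fold 5.71) in replicate 2. In Pcdh19, which in humans is a gene of an X-linked epilepsy, they lay at +1294 bp (fold 6.84) and +1671 bp (fold 6.14). Pcdh8 had them at +2314 bp (fold 4.30) and +1499 bp (fold 3.53). Pcdh20 had +1240 bp (fold 6.05) in replicate 1, and +1453 bp (fold 3.14) and +1921 bp (fold 6.48) in replicate 2. The rule does not ask the summits of the replicates to coincide, and overlap of these peaks was not examined. Classical cadherins, adhesion genes with many exons, had such summits in 1 of 13 genes (7.69%). The clustered genes at 66.7% were thus nearer to the unclustered protocadherins than to the classical cadherins in this measure, without a test.

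Other gene families in tandem arrays did not have this pattern to the same degree. Hox genes had far summits of both replicates in 5 of 22 genes (22.7%), olfactory receptor (Olfr) genes in 11 of 940 (1.17%) and vomeronasal receptor (Vmn2r) genes in 0 of 116, which allows a share of up to 2.59%. At the transcription start, Hox genes had a site of both replicates in 59.1% of genes, Olfr genes in 2.23% and Vmn2r genes in 2.59%, against the 31.6% of clustered protocadherins. These families in tandem arrays thus differed from each other in both measures.

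**Figure D4:**
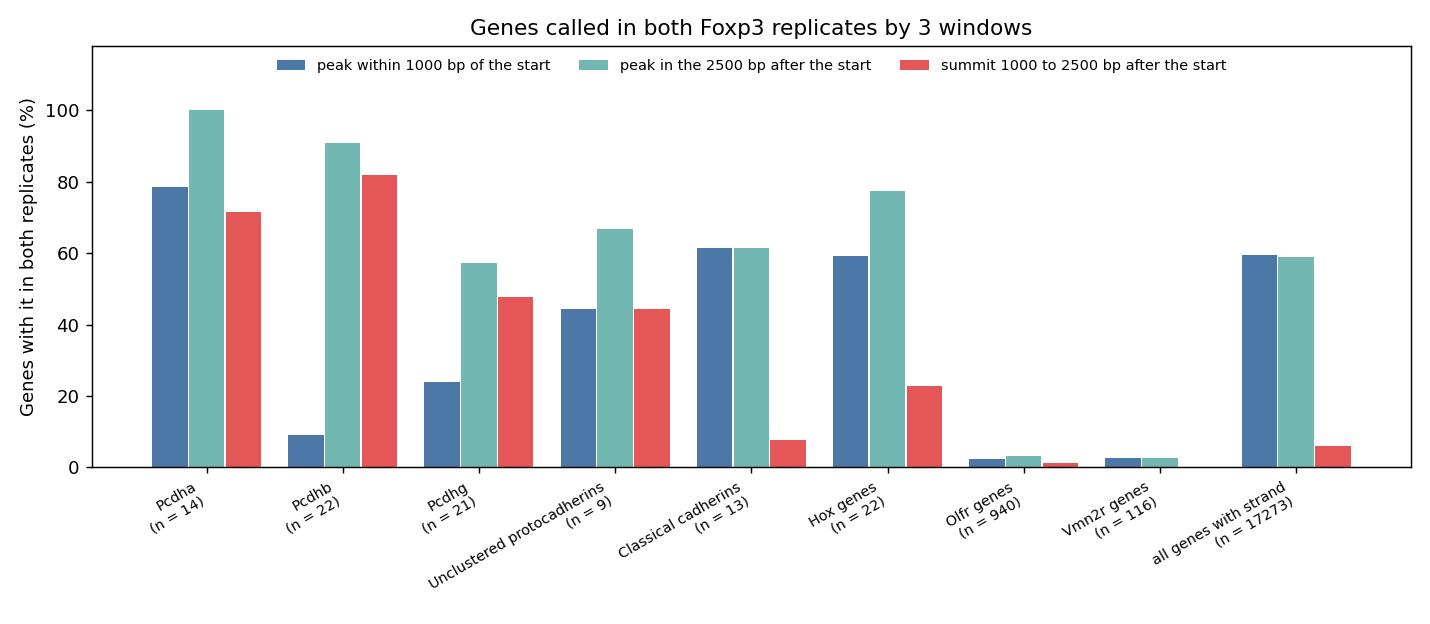
Share of genes called in both replicates in percent (vertical axis) for the 3 arrays and, to their right, comparison families and all genes with known strand (horizontal axis, with the number of genes in each), by 3 rules given as bars. The red bars, summits 1000 to 2500 bp after the start, reach 81.8% in Pcdhb and 71.4% in Pcdha, against 5.93% of all genes with known strand.

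Genes whose products act on or with the clustered protocadherins mostly had a site at the start itself. Among genes for architecture and silencing factors of the arrays, 14 of 15 with known strand had one in both replicates (93.3%), with folds of 17.6 in replicate 1 and 6.77 in replicate 2 at Trim28, a corepressor. Among genes for partner proteins it was 12 of 13 (92.3%), including Nckap1 of the WAVE actin-regulating complex (17.7 in replicate 1 and 8.57 in replicate 2) and Adam10, a protease that sheds membrane proteins (19.6 and 7.67). Far summits of both replicates were present in 1 of 15 and 0 of 13 of these genes. The background at the start was 59.5%. The members as a whole differed from both lists in having more far summits than start sites, at 38 and 18 of 57. This held for Pcdhb (18 and 2 of 22) and Pcdhg (10 and 5 of 21). Pcdha had about as many of each, at 10 and 11 of 14. Start sites were counted here by overlapping peaks and far sites by summits.

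Genes that lie beside or between the arrays were marked at their ends. The 3 annotated read-through genes, Gm37013, Gm38666 and Gm38667, start together with Pcdha4, Pcdha6 and Pcdha7 and were called by the same peaks, so those peaks cannot be told apart between the pairs. Taf7, a subunit of the general transcription factor TFIID that lies between Pcdhb and Pcdhg, had fold enrichments of 15.6 in replicate 1 and 3.53 in replicate 2 at its higher-coordinate end. Its neighbour Slc25a2, a mitochondrial carrier, had fold enrichments of 7.41 and 3.93 at that end. Past Pcdhg, Diaph1, an actin-nucleating formin, had fold enrichments of 12.8 and 5.07 at its lower end and 13.8 and 5.30 at its higher end, and Hdac3, a histone deacetylase, had 9.81 and 3.68 at its higher end. Of 25 genes within 300 kb that are not members, 20 had a site of both replicates at one or the other end (80.0%), against 61.0% of all genes. These counts take in the 3 read-through genes, whose start peaks are those of members.

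The cell type in the labels was checked as far as peak lists allow. Peaks at gene ends are not expression, and the counts below say only where sites lay. Either end was marked in both replicates in 6 of 10 macrophage genes, 7 of 10 neuron genes and 2 of 6 regulatory T cell genes, against 61.0% of all genes. The lists therefore neither set macrophage genes apart nor bear on whether the clustered protocadherins were transcribed in these cells.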

How the data were processed

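Peak lists of 2 Foxp3 CUT&RUN replicates from BMDMs were analysed, each from 1 library, grouped by the antibody in the labels. The submitters' processing notes name CASAVA 1.4 and mm10, and no aligner is named there. Peaks were called by the authors, per the file headers, with MACS 2.1.1.20160309 on paired fragments of each library, at a q-value cutoff of 0.01, an effective genome size of 1.87e+09 bp, all duplicates kept, no control, and a local background over 10000 bp. The deposited pileup is a signal in fragments and depends on depth; as duplicates were kept, repeated amplification of a fragment can raise it. Fold enrichment, as deposited, is a ratio within a library, and the deposited significance is −log10 of a p-value and a q-value.

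Gene positions came from RefSeq (GRCm38.p6), whose table has no strand; 17273 genes took their start and strand from RefSeq promoter records, none of them on chromosome 18. A gene was called when a peak overlapped its window by at least 1 bp. Far and start stretches used the summit. Counts, medians, densities and Clopper-Pearson intervals were computed with Python 3.11.15, pandas 2.3.3 and scipy 1.17.1, and the counting was tested on simulated lists. Where none was found, the upper limit given is 3 over the number of genes. No test between groups was possible. The members, lists and stretches were chosen with earlier results of these data known. Members called in both replicates, the 5 highest of each array by mean percentile of fold near the start, C-type genes, members without a peak, overlapping peaks, neighbours within 100 kb and up to 4 genes of each list were to be named; the lists are given by counts and fewer of their genes. No genome sequence was used here.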

Additional observations from a re-analysis of the deposited data

How the results depend on the processing

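The count of 18 members with a start site in both replicates moved to 48 with windows of 2500 bp (background 48.2%), to 51 with 5000 bp (61.4%) and to 10 with the replicate 1 list limited to its strongest peaks by fold, as many as replicate 2 holds (25.4%). With replicate 1 left out it was 23 (background 37.2%), and with replicate 2 left out it was 34 (66.7%). The count of overlapping start peaks, also 18, moved to 46 (41.3%) and 48 (51.3%) with the wider windows and to 10 (24.1%) with the strongest peaks by fold. Wider windows take in the far exon sites by construction. The shared part of replicate 2 peaks, 50.6%, was 39.0% with the strongest peaks by fold (19.0% of the list), 81.8% with overlaps of 1 bp (53.8%) and 3.25% with peaks moved by 10 kb. The median fold over the arrays, averaged over the replicates, was 5.53, and 8.79 or 8.32 with the strongest replicate 1 peaks by fold or −log10 q, against 4.57 to 6.50 with 1 replicate left out. The peak density relative to the autosomes and X, averaged over the replicates, was 2.03 in Pcdha, 1.76 in Pcdhb and 2.47 in Pcdhg; with 1 replicate left out it was 0.913 to 3.15, 0.866 to 2.64 and 1.62 to 3.31, so that replicate 1 alone put Pcdha and Pcdhb below the genome.

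The counts of 46 members over the 2500 bp after the start and of 38 members with a far summit were added after the data had been seen. Under stricter or strongest peaks they were 41 to 42 (background 46.7% to 55.0%) and 31 to 33 (2.34% to 4.48%), and with 1 replicate left out 47 to 56 (60.5% to 82.4%) and 38 to 53 (8.30% to 33.0%). Sharing between replicates needs both lists, so no replicate could be left out there. No paired analysis was possible because there is 1 condition. Sites under 10 fragments in replicate 1 or 13 in replicate 2 were not listed, and the background of an IgG library was not analysed here.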
